A study of Mus musculus with 6 samples.

Results

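Cathepsins and other lysosomal proteins were examined as 46 named genes, all of which had 1 row each among the 25721 genes of the authors' comparison table. They cover 12 cathepsins, the acid phosphatases Acp5 and Acp2, hydrolases of glycans and lipids, membrane proteins of the lysosome, the cathepsin inhibitor cystatin C and the transcription factor TFEB. RNA came from tibia cortex of wild-type mice, with the bone ends removed and the marrow flushed out, so the samples are a tissue and not a purified cell type. From 8 to 12 weeks of age the mice ate either a diet with 0.2% adenine by weight, a chemical model of chronic kidney disease, or a control diet. There were 3 libraries on the adenine diet, called adenine 1 to 3, and 3 on the control diet, called control 1 to 3. Nothing in the labels says that each library was a separate mouse, so p-values measure the spread between these libraries.

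Lysosomes are acidic compartments in which proteases, glycosidases, sulphatases and lipases break down material taken up by the cell or delivered by autophagy. Osteoclasts, the bone-resorbing cells, turn this machinery outward: they fuse lysosome-related vesicles with the membrane facing bone and release enzymes into the sealed acidic space beneath the cell. Cathepsin K (Ctsk), the main collagen-degrading protease of bone, and tartrate-resistant acid phosphatase (Acp5) are the best known of the released enzymes, whereas cathepsins D, B and L and most hydrolases are found in nearly all cells. Macrophages, which share a precursor with osteoclasts, carry many lysosomes and express cathepsin S and CD68 strongly.

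Total counts were 9977694, 11238460 and 12044459 in adenine 1 to 3 and 14598010, 10549071 and 13975659 in control 1 to 3. All 46 genes passed the filter on low counts, and the smallest count of any of them in any library was 66. Bone matrix transcripts were abundant in every library, with a summed level of 9 osteoblast markers of 16358 to 42223 CPM on the adenine diet and 14888 to 17225 CPM on the control diet. Muscle transcripts differed widely between libraries of the same diet, the sum of 11 markers being 2948, 73609 and 5893 CPM in adenine 1 to 3 and 56293, 20360 and 88238 CPM in control 1 to 3. Kidney tubule markers (12 of 12 with counts) summed to 2051, 844 and 115 CPM in adenine 1 to 3 and 266, 72.7 and 56.7 CPM in control 1 to 3. Osteocyte markers summed to 188 to 289 CPM on the adenine diet and 289 to 681 CPM on the control diet. Of these, 9 of 9 were detected and 5 were lower at an unadjusted p under 0.05, where 6.49% of all genes were. All 6 endothelial markers were lower without overlap, where 8.86% of all genes were. They summed to 273 to 432 CPM on the adenine diet and 642 to 831 CPM on the control diet. Muscle and kidney tubule levels were each used as a covariate in an alternative fit, and the part of the osteocyte, osteoblast and endothelial differences in the results that follow was not tested. In bulk tissue, fewer cells of a type and less RNA per cell cannot be told apart.

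The question here was whether lysosomal transcripts of cortical bone differed by diet, and whether the enzymes that osteoclasts secrete differed from those of lysosomes in general. Of the 46 genes, 34 had a higher and 12 a lower estimate on the adenine diet, and their median log2 fold change was 0.34 against -3.85e-07 for all 15609 genes tested. In edgeR's quasi-likelihood test 0 of the 46 passed an adjusted p of 0.05, as did 0% of all genes tested, the smallest adjusted p among the 46 being 0.189, while the DESeq2 Wald test passed 5 of the 46 (Ctsk, Acp5, Cd68, Glb1 and Arsb) and 1.93% of all genes to which it gave an adjusted p. At an unadjusted p under 0.05, 17 of 46 (37.0%) were higher on the adenine diet, where 4.22% of all genes were, and 0 of 46 were lower, where 6.49% were. CPM of the 2 diets did not overlap for 16 higher genes and 1 lower gene, where 7.68% and 8.86% of all genes did the same. The authors' deposited table called 5 of the 46 higher at an adjusted p under 0.05, where it called 0.642% of all genes with an adjusted p below 1, and called 0 lower, where it called 1.29%. These 5 were the genes that passed the DESeq2 Wald test. The deposited unadjusted p-values were nearly equal to those of that test, such as 5.45e-05 for Ctsk in both, so the 2 results are not independent. The count of 17 at an unadjusted p under 0.05 was 7 without adenine 3, 11 without adenine 1 and 11 without control 1. It was 8 when the muscle level was a covariate and 12 when the kidney tubule level was. Of all genes, 1.97% were higher at such a p without adenine 1, 2.84% with the muscle level and 1.73% with the kidney tubule level. No such share is given here for the fits without adenine 3 or control 1, so those counts cannot be set against all genes. The median log2 fold change of the 46 genes was 0.54 without adenine 2.

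**Figure D1:**
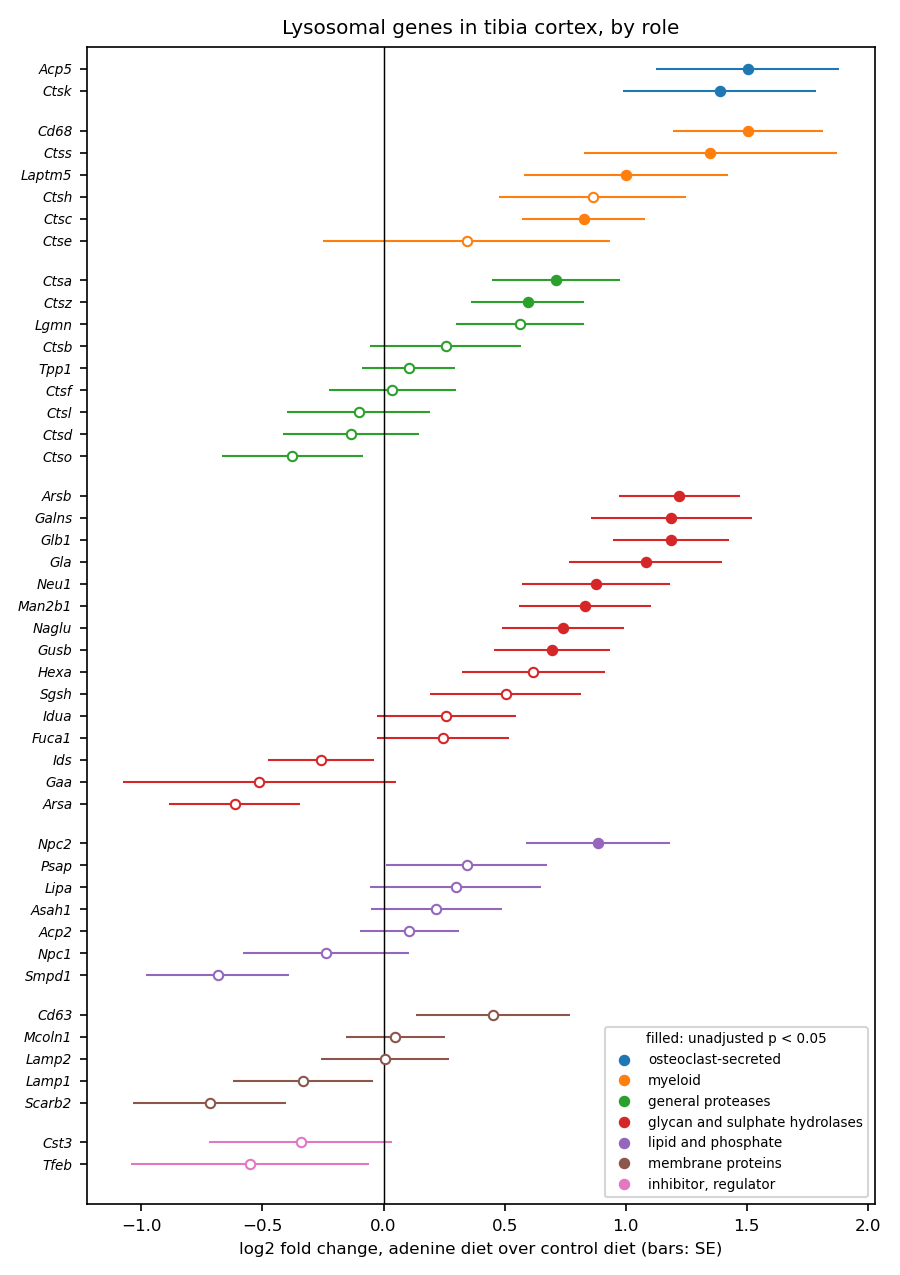
Log2 fold change (adenine diet over control diet, x axis) of the 46 genes, grouped by role and sorted within a role. Points are edgeR estimates, bars are 1 standard error, and filled points have an unadjusted p under 0.05. The estimates run from -0.72 for Scarb2 to 1.505 for Cd68, and every filled point lies to the right of 0.

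The secreted osteoclast enzymes were both higher on the adenine diet. Ctsk (ENSMUSG00000028111, chromosome 3, 95406567 to 95416673 in the files' coordinates, for which the sources used here name no build) had 984, 865 and 1631 FPKM in adenine 1 to 3, against 441, 402 and 440 FPKM in control 1 to 3. The 3 control libraries were close together, every adenine library lay above them, and adenine 3 stood highest. Ctsk averaged 1160 ± 412 FPKM on the adenine diet and 428 ± 22.4 FPKM on the control diet (SD, n = 3 each). Its log2 fold change was 1.39 (standard error, SE, 0.40), a 2.62-fold difference (edgeR adjusted p = 0.322; adjusted p = 0.00689 in the authors' deposited table). Acp5 (ENSMUSG00000001348, chromosome 9, 22038023 to 22047007), the phosphatase that histologists stain to find osteoclasts, had 537, 482 and 870 FPKM in adenine 1 to 3, against 232, 193 and 217 FPKM in control 1 to 3. These groups did not overlap either, and adenine 3 was again highest. The log2 fold change of Acp5 was 1.504 (SE 0.38, edgeR adjusted p = 0.264; adjusted p = 0.00211 in the authors' deposited table).

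The ratio of Ctsk to Acp5 stayed between 1.79 and 2.08, and was lower in every adenine library than in any control library. Ctsk had 1.83, 1.79 and 1.87 times the FPKM of Acp5 in adenine 1 to 3, against 1.90, 2.08 and 2.03 times in control 1 to 3. Together they supplied 37.1%, 39.0% and 45.1% of the summed FPKM of the 46 genes in adenine 1 to 3, against 22.8%, 23.0% and 21.97% in control 1 to 3. Both had an unadjusted p under 0.05 in 18 of 18 alternative analyses, with log2 fold changes of 1.05 to 1.74 for Ctsk and 1.19 to 1.83 for Acp5. The lowest value of each came without adenine 3.

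**Figure D2:**
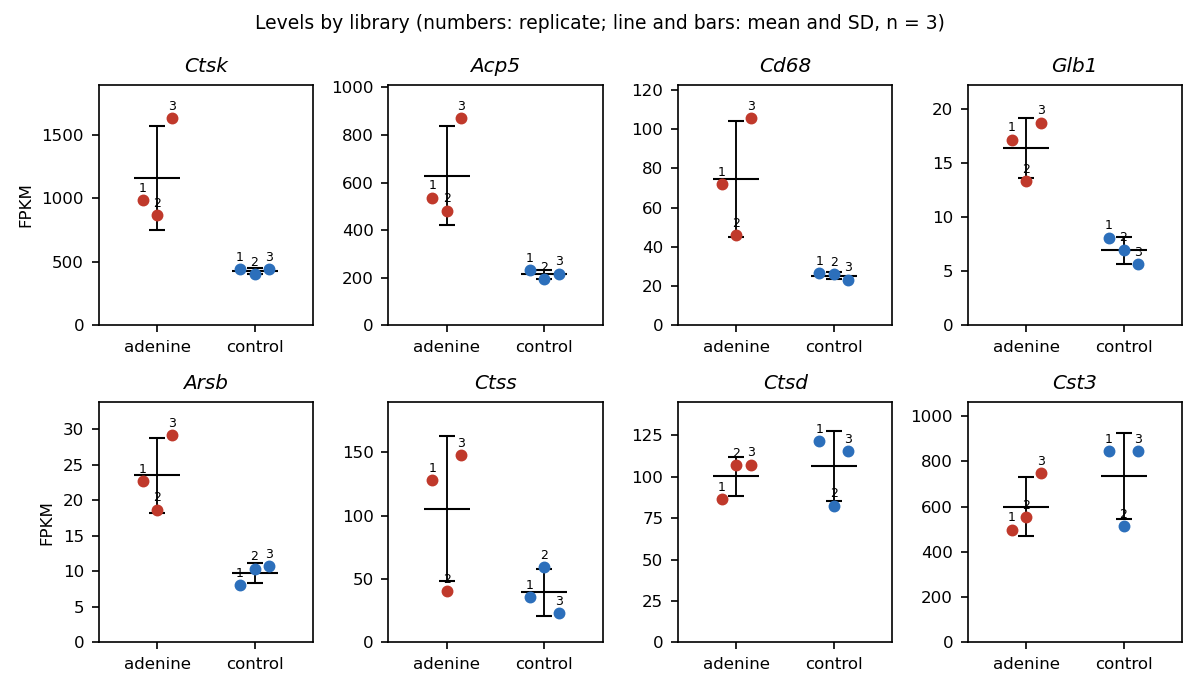
FPKM (y axis, from 0) of 8 lysosomal genes in each library, with adenine-diet libraries at the left of each panel and control-diet libraries at the right. Numbers are replicate numbers, the long line is the mean and the bars are the SD (n = 3). Ctsk, Acp5, Cd68, Glb1 and Arsb do not overlap between diets, Ctss overlaps through adenine 2, and Ctsd and Cst3 overlap broadly.

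Other genes of osteoclast resorption, none of them a lysosomal enzyme of the 46, were counted in the same way. All 18 of 18 had a positive estimate, with a median log2 fold change of 1.21. Of these, 11 were higher at an unadjusted p under 0.05, where 4.22% of all genes were. The diets did not overlap for 12, all of them higher, where 7.68% of all genes did the same. Atp6v0d2, a subunit of the vacuolar proton pump, had 47.8, 52.0 and 68.6 FPKM in adenine 1 to 3, against 20.0, 15.2 and 16.0 FPKM in control 1 to 3. Ocstamp, a membrane protein needed for osteoclast fusion, had 5.51, 5.53 and 9.88 FPKM in adenine 1 to 3, against 1.17, 0.451 and 1.46 FPKM in control 1 to 3. Snx10, a sorting nexin required for resorption, had 16.0, 13.7 and 21.9 FPKM in adenine 1 to 3, against 6.85, 5.88 and 5.96 FPKM in control 1 to 3. In these 3 genes, as in Ctsk and Acp5, adenine 3 was the highest library.

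The members typical of myeloid cells were Cd68, Ctss, Laptm5, Ctsh, Ctsc and Ctse. All 6 had a positive estimate, with a median log2 fold change of 0.93. Of the 6, 4 were higher at an unadjusted p under 0.05, where 4.22% of all genes were. Cd68 (ENSMUSG00000018774, chromosome 11, 69555039 to 69556979), a heavily glycosylated lysosomal membrane protein of macrophages and osteoclasts, had 72.1, 46.1 and 106 FPKM in adenine 1 to 3, against 26.5, 26.1 and 23.3 FPKM in control 1 to 3. No control library reached the lowest adenine library. The log2 fold change of Cd68 was 1.505 (SE 0.31, edgeR adjusted p = 0.194; adjusted p = 0.0091 in the authors' deposited table). Ctsc, which activates serine proteases of leukocyte granules, had 17.3, 11.1 and 20.3 FPKM in adenine 1 to 3, against 8.24, 9.48 and 8.67 FPKM in control 1 to 3, again without overlap.

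Ctss, Laptm5 and Ctsh showed another order of libraries. Ctss, the cathepsin that trims the invariant chain in antigen-presenting cells, had 128, 40.6 and 148 FPKM in adenine 1 to 3, against 35.9, 59.3 and 23.1 FPKM in control 1 to 3. Laptm5, a lysosomal membrane protein of blood cells, had 67.995, 29.2 and 71.4 FPKM in adenine 1 to 3, against 21.2, 39.4 and 19.9 FPKM in control 1 to 3. Ctsh, an aminopeptidase-type cathepsin, had 20.8, 9.84 and 27.3 FPKM in adenine 1 to 3, against 11.8, 11.3 and 7.24 FPKM in control 1 to 3. For all 3 genes adenine 2 was below control 2, so the diets overlapped. With the muscle level as a covariate the log2 fold change was 0.38 for Ctss, against 1.35 with diet as the only term, and 0.32 for Laptm5, against 1.00, while that of Cd68 was 1.13 and that of Ctsk 1.24.

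Macrophage markers had positive estimates where tested, and their order of libraries depended on how the markers were combined. Of 15 markers 14 had a row and 13 were tested. Of the 13, 8 were higher at an unadjusted p under 0.05, where 4.22% of all genes were. The summed level of the markers was 2108, 811 and 2910 CPM in adenine 1 to 3, against 778, 1406 and 528 CPM in control 1 to 3. By this sum adenine 2 was again below control 2. By the mean log2 CPM of the markers, which weights them equally, the level was 4.61, 4.28 and 5.04 in adenine 1 to 3, against 3.91, 3.99 and 3.74 in control 1 to 3, without overlap. No marker with a row was at 0 in all libraries of a diet. The neutrophil markers summed to 3111 to 4003 CPM on the adenine diet and 398 to 3739 CPM on the control diet, with 0 of 10 at an unadjusted p under 0.05. The part of macrophage or neutrophil content in the values of Ctss, Laptm5, Ctsh, Ctsc and Cd68 was not tested.

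**Figure D3:**
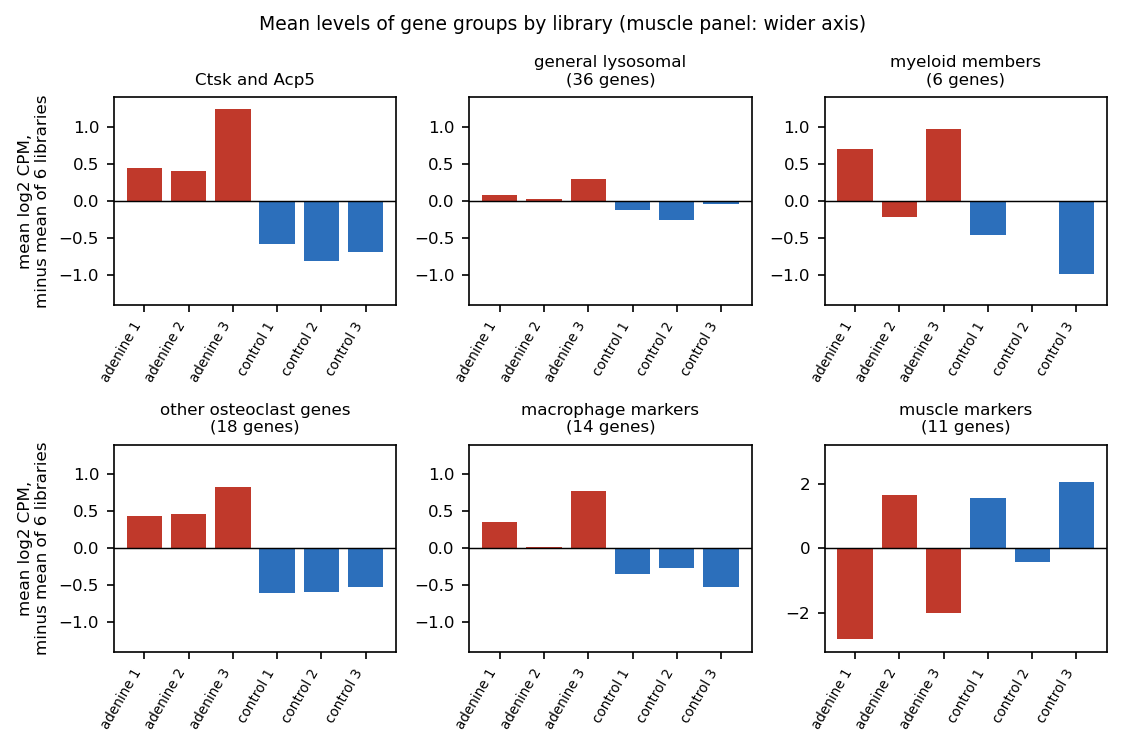
Mean log2 CPM of gene groups in each library, minus the mean of the 6 libraries (y axis), with adenine-diet libraries at the left. Bars are libraries, and the muscle panel has a wider axis. Ctsk with Acp5 and the other osteoclast genes are above 0 in the 3 adenine libraries and below 0 in the 3 control libraries, the myeloid members are below 0 in adenine 2, and the muscle markers are low in adenine 1 and 3.

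Ctse, an aspartic protease grouped with the myeloid members, had 191, 93.8 and 159 FPKM in adenine 1 to 3, against 91.9, 203 and 38.1 FPKM in control 1 to 3. Control 2 was highest and control 3 lowest, so both extremes were control libraries. The sum of erythroid markers (6 of 6 with counts, haemoglobins included) was 70050, 51736 and 46233 CPM in adenine 1 to 3, against 42584, 69875 and 9371 CPM in control 1 to 3. Adenine 1 and control 2 were thus highest and control 3 lowest, as they were for Ctse. The log2 fold change of Ctse was 0.34 (SE 0.59), and -0.051 without control 3. The part of red cell precursors in the level of Ctse was not tested.

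The proteases of lysosomes in general had mostly small estimates. Among these 9 genes 6 had a positive and 3 a negative estimate, and the median log2 fold change was 0.10. At an unadjusted p under 0.05, 2 were higher, where 4.22% of all genes were. Ctsa, the protective protein that also holds the sialidase and beta-galactosidase of lysosomes in a complex, had 45.3, 35.4 and 56.3 FPKM in adenine 1 to 3, against 24.6, 24.8 and 31.3 FPKM in control 1 to 3. Ctsz, a carboxypeptidase, had 127, 97.4 and 139 FPKM in adenine 1 to 3, against 78.7, 78.9 and 73.8 FPKM in control 1 to 3. Neither gene overlapped between diets, and their log2 fold changes were 0.71 and 0.59 (SE 0.26 and 0.23).

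The widely expressed cathepsins B, D and L had estimates nearer to 0. Ctsb had 127, 108 and 149 FPKM in adenine 1 to 3, against 103, 109 and 98.0 FPKM in control 1 to 3. Its FPKM overlapped slightly and its CPM did not, and its log2 fold change was 0.26 (SE 0.31). Ctsd, the main aspartic protease of lysosomes, had 86.3, 107 and 107 FPKM in adenine 1 to 3, against 121, 82.5 and 115 FPKM in control 1 to 3. The highest and the lowest Ctsd value were both in control libraries, and its log2 fold change was -0.14 (SE 0.28). Ctsl, a collagen- and elastin-cleaving relative of cathepsin K, had -0.10, Ctsf 0.04 and Ctso -0.38 (SE 0.26 to 0.30). Tpp1, a tripeptidyl peptidase, had 0.10 (SE 0.19), and Lgmn, the asparaginyl endopeptidase that activates other cathepsins, had 0.56 (SE 0.26). These tests leave room for differences larger than their standard errors and do not show equality.

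Within the papain family, to which Ctsk, Ctsl, Ctss, Ctsb, Ctsz, Ctsc, Ctsh, Ctsf and Ctso belong, 4 of 9 genes were higher at an unadjusted p under 0.05. Of all genes, 4.22% were higher at such a p. On the FPKM scale Ctsk had the highest mean of the 46 genes over the 6 libraries, although Cst3 exceeded it in each control library. It had 11.4, 8.09 and 15.2 times the FPKM of Ctsd in adenine 1 to 3, against 3.63, 4.87 and 3.82 times in control 1 to 3. Relative to Ctsb it had 7.74, 7.97 and 10.97 times in adenine 1 to 3, against 4.27, 3.70 and 4.496 times in control 1 to 3. For the acid phosphatases, Acp5 had 97.6, 110 and 158 times the FPKM of the ubiquitous lysosomal form Acp2 in adenine 1 to 3, against 54.7, 37.9 and 48.9 times in control 1 to 3. Each of these ratios was higher in every adenine library than in any control library. They were computed after the levels were seen and were given no test.

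Hydrolases of glycans and sulphate esters were the largest group among the 17 genes. Of these 15 genes 12 had a positive and 3 a negative estimate, and the median log2 fold change was 0.69. At an unadjusted p under 0.05, 8 were higher, where 4.22% of all genes were. Arsb (ENSMUSG00000042082, chromosome 13, 93908138 to 94079524), a sulphatase that removes sulphate from dermatan and chondroitin sulphate, had 22.7, 18.7 and 29.2 FPKM in adenine 1 to 3, against 8.08, 10.4 and 10.8 FPKM in control 1 to 3. Glb1 (ENSMUSG00000045594, chromosome 9, 114230144 to 114303966), the lysosomal beta-galactosidase, had 17.2, 13.3 and 18.8 FPKM in adenine 1 to 3, against 8.12, 6.997 and 5.65 FPKM in control 1 to 3. Both were more than 2-fold higher, without overlap. The log2 fold change was 1.22 for Arsb and 1.19 for Glb1 (SE 0.25 and 0.24, edgeR adjusted p = 0.193 and 0.189; adjusted p = 0.0134 and 0.0296 in the authors' deposited table). Both kept an unadjusted p under 0.05 in 18 of 18 alternative analyses.

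Galns, a sulphatase of keratan and chondroitin sulphate, had 11.3, 6.71 and 11.4 FPKM in adenine 1 to 3, against 3.83, 5.61 and 2.97 FPKM in control 1 to 3. Gla, the alpha-galactosidase that clears globotriaosylceramide, had 2.83, 3.46 and 4.42 FPKM in adenine 1 to 3, against 1.51, 1.67 and 1.72 FPKM in control 1 to 3. Both were separated by diet, at log2 fold changes of 1.19 and 1.08 (SE 0.33 and 0.32). Gusb, the beta-glucuronidase, had 16.1, 11.8 and 19.9 FPKM in adenine 1 to 3, against 10.1, 9.64 and 8.67 FPKM in control 1 to 3. Naglu, an enzyme of heparan sulphate breakdown, had 12.6, 9.27 and 16.1 FPKM in adenine 1 to 3, against 6.91, 6.74 and 8.25 FPKM in control 1 to 3. Man2b1, the alpha-mannosidase, had 14.1, 8.04 and 13.2 FPKM in adenine 1 to 3, against 5.68, 7.84 and 5.51 FPKM in control 1 to 3. In these 3 genes the gap between diets was narrow, since adenine 2 lay close above the highest control. Neu1, the sialidase, had 16.9, 8.36 and 12.9 FPKM in adenine 1 to 3, against 8.55, 5.53 and 5.76 FPKM in control 1 to 3, and overlapped through adenine 2.

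The other hydrolases of this group did not reach an unadjusted p under 0.05. Hexa, an enzyme of ganglioside breakdown and the most abundant of the group, had 103, 85.4 and 153 FPKM in adenine 1 to 3, against 77.9, 62.2 and 74.6 FPKM in control 1 to 3. Its log2 fold change was 0.62 (SE 0.30), and 0.33 without adenine 3. The heparan and dermatan sulphate enzymes Sgsh, Idua and Ids had log2 fold changes of 0.50, 0.26 and -0.26, and the fucosidase Fuca1 had 0.25. Arsa, which desulphates myelin sulphatide, had 3.56, 4.35 and 3.83 FPKM in adenine 1 to 3, against 4.47, 5.36 and 7.63 FPKM in control 1 to 3. It was the only one of the 46 genes whose adenine libraries all lay below the control libraries, with a log2 fold change of -0.62 (SE 0.27).

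**Figure D4:**
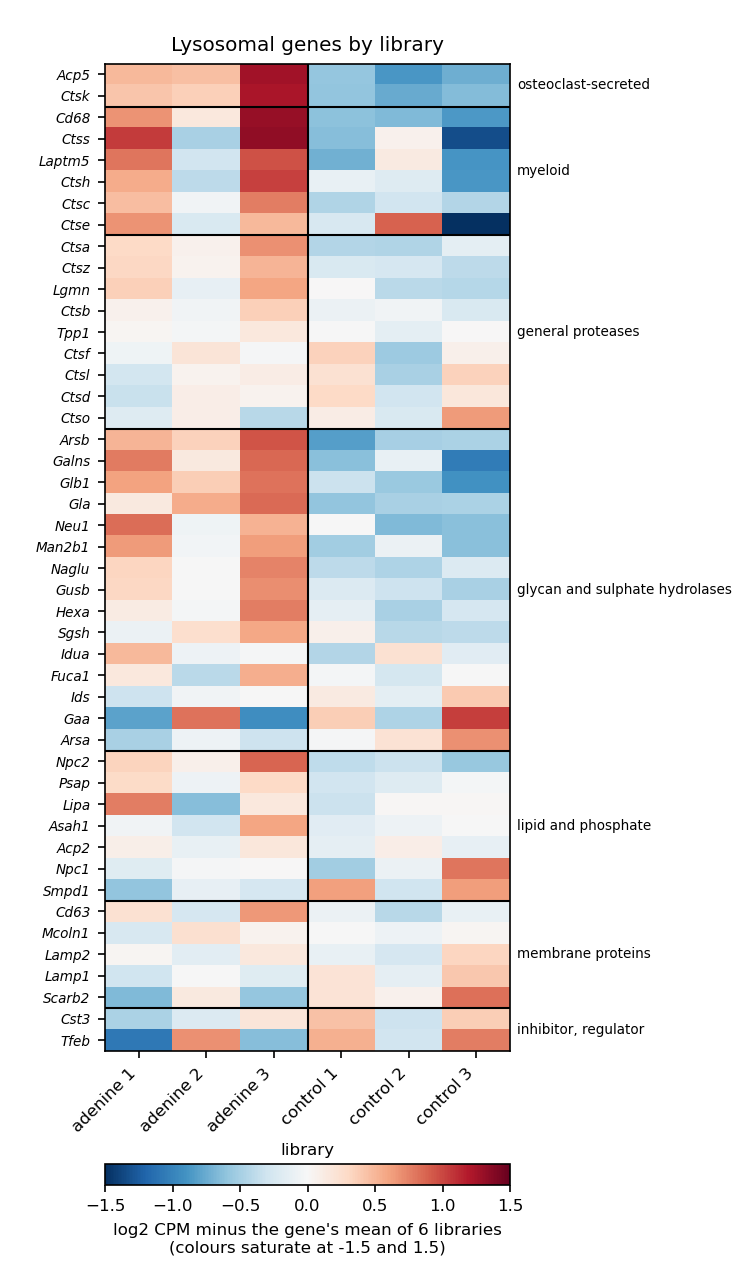
Log2 CPM of each of the 46 genes minus its mean over the 6 libraries (colour, saturating at -1.5 and 1.5), with adenine-diet libraries in the left columns and genes grouped by role. Ctsk, Acp5, Cd68, Arsb, Galns, Glb1 and Gla are above their mean in the 3 adenine columns, whereas Gaa and Tfeb are high in adenine 2, control 1 and control 3.

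Ctsa, Neu1, Glb1 and Galns, which are described as parts of a common lysosomal enzyme complex, all had an unadjusted p under 0.05. Their log2 fold changes were 0.71, 0.88, 1.19 and 1.19. The grouping of these 4 genes was made after their values were seen. Over 18 alternative analyses such a p held in 18 for Glb1, in 17 for Galns and in 11 each for Ctsa and Neu1. With the muscle level in the model the unadjusted p was 0.0647 for Ctsa and 0.128 for Neu1.

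Lipid-handling genes were grouped with the acid phosphatase Acp2. Of 7 genes 5 had a positive and 2 a negative estimate, with a median log2 fold change of 0.22. At an unadjusted p under 0.05, 1 was higher, where 4.22% of all genes were. Npc2, which hands cholesterol to the membrane transporter NPC1, had 55.7, 42.7 and 76.8 FPKM in adenine 1 to 3, against 30.7, 32.6 and 28.0 FPKM in control 1 to 3. These values did not overlap, and the log2 fold change was 0.88 (SE 0.30, edgeR adjusted p = 0.385). Npc1 itself had 2.66, 2.76 and 2.89 FPKM in adenine 1 to 3, against 1.90, 2.63 and 4.99 FPKM in control 1 to 3, a log2 fold change of -0.24 (SE 0.34). Psap, the precursor of the saposins that present lipids to hydrolases and the most abundant of the group, had 451, 322 and 434 FPKM in adenine 1 to 3, against 274, 298 and 342 FPKM in control 1 to 3. Smpd1, the acid sphingomyelinase, had a log2 fold change of -0.69 (SE 0.30). The acid lipase Lipa had 0.30, the acid ceramidase Asah1 0.22 and Acp2 0.11, each less than 1 standard error from 0.

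The 5 membrane proteins of lysosomes had a median log2 fold change of 0.01, and 0 of 5 had an unadjusted p under 0.05. Lamp1, the most abundant lysosomal membrane glycoprotein of the group, had 126, 143 and 130 FPKM in adenine 1 to 3, against 162, 131 and 194 FPKM in control 1 to 3. The log2 fold changes were -0.33 for Lamp1 and 0.01 for its relative Lamp2 (SE 0.29 and 0.26). The tetraspanin Cd63 had 0.45 and the calcium channel gene Mcoln1 0.05 (SE 0.32 and 0.20). Scarb2, the receptor that carries glucocerebrosidase to lysosomes, had 6.79, 10.9 and 6.82 FPKM in adenine 1 to 3, against 11.2, 10.3 and 17.9 FPKM in control 1 to 3. Its log2 fold change was -0.72 (SE 0.32), and -0.44 without control 3.

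Cst3 encodes cystatin C, a secreted inhibitor of papain-family cathepsins. It had 499, 553 and 748 FPKM in adenine 1 to 3, against 847, 515 and 845 FPKM in control 1 to 3, with a log2 fold change of -0.34 (SE 0.38). The diets overlapped for Cst3, but not for its ratio to Ctsk. Ctsk had 1.97, 1.56 and 2.18 times the FPKM of Cst3 in adenine 1 to 3, against 0.521, 0.780 and 0.521 times in control 1 to 3, a comparison made after the levels were seen and given no test. Of 9 protease inhibitor genes, the serpins Serpinb1a and Serpinb6a among them, 7 were tested. At an unadjusted p under 0.05, 1 was higher, where 4.22% of all genes were. That gene was Cstb, the intracellular cystatin B, with 129, 99.7 and 194 FPKM in adenine 1 to 3, against 66.7, 58.6 and 44.8 FPKM in control 1 to 3. Its log2 fold change was 1.26 (SE 0.30, edgeR adjusted p = 0.256). Serpinb6a, a serpin, had 17.6, 54.3 and 27.4 FPKM in adenine 1 to 3, against 58.9, 31.8 and 81.2 FPKM in control 1 to 3.

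Tfeb encodes a transcription factor that switches on many lysosomal genes when nutrients are scarce. It had 2.74, 8.57 and 3.52 FPKM in adenine 1 to 3, against 7.61, 4.38 and 9.33 FPKM in control 1 to 3. Adenine 2 lay within the control range, and the log2 fold change of -0.55 had a standard error of 0.49. The muscle marker level had the same order over the 6 libraries, with a mean log2 CPM of 7.67, 12.1 and 8.49 in adenine 1 to 3, against 12.0, 10.1 and 12.5 in control 1 to 3. With that level as a covariate the log2 fold change of Tfeb was 0.15, and without adenine 2, the adenine library with the most muscle RNA, it was -1.27. Gaa, the enzyme of glycogen breakdown whose loss causes Pompe disease of muscle, had 12.5, 35.3 and 10.9 FPKM in adenine 1 to 3, against 25.5, 14.6 and 42.3 FPKM in control 1 to 3. It too was highest in control 3 and adenine 2, and its log2 fold change was -0.51 (SE 0.56). The part of muscle RNA in Tfeb and Gaa was not tested beyond this covariate.

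**Figure D5:**
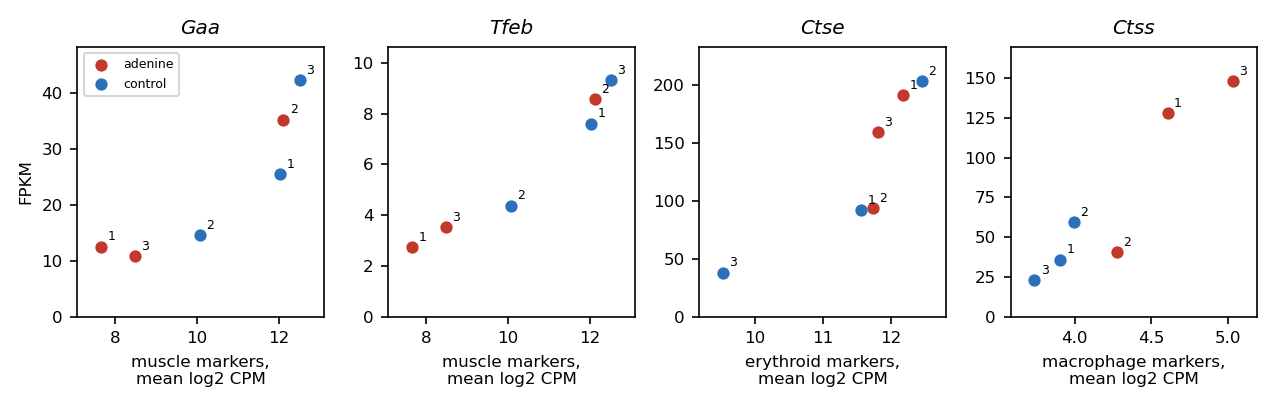
FPKM (y axis, from 0) of Gaa and Tfeb against the mean log2 CPM of muscle markers, of Ctse against that of erythroid markers, and of Ctss against that of macrophage markers (x axes), 1 point per library, numbered by replicate. Gaa and Tfeb are high in the libraries with muscle levels above 12, and Ctse is lowest in control 3, which has the lowest erythroid level. The pairs were chosen after the values were seen.

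Among 13 regulators of lysosomal genes, Tfeb included, 0 had an unadjusted p under 0.05, with 6 positive and 7 negative estimates. Tfec, a relative of TFEB that is largely restricted to myeloid cells, had 2.003, 1.23 and 1.401 FPKM in adenine 1 to 3, against 0.353, 1.02 and 0.130 FPKM in control 1 to 3. Its libraries did not overlap, and the log2 fold change was 1.56 (SE 0.69). Tfe3, another member of the family, had 3.83, 3.13 and 3.24 FPKM in adenine 1 to 3, against 2.22, 3.02 and 2.54 FPKM in control 1 to 3. Rragd, a nutrient-sensing GTPase, had 3.06, 29.1 and 3.54 FPKM in adenine 1 to 3, against 30.4, 12.7 and 49.3 FPKM in control 1 to 3. It was high in adenine 2, control 1 and control 3, the libraries with the most muscle RNA.

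TFEB and its relatives bind a palindromic sequence, CACGTG, often flanked as TCACGTGA, which recurs in promoters of lysosomal genes. MITF and TFE3 of the same family also bind TCATGTGA and are known regulators of Acp5 and Ctsk in osteoclasts. The 250 bases before each annotated start were searched for these letters on both strands in the RefSeq promoters of the GRCm38.p6 build, where 40 of the 46 genes matched a symbol. CACGTG, which TCACGTGA contains, was present for 13 of 40 genes (32.5%), where it was present for 6.86% of 27025 genes. TCACGTGA was present for 4 of 40 (10%), where 0.907% of all had it, and TCATGTGA or its reverse complement TCACATGA for 2 of 40 (5%), where 0.984% of all had it. By role, CACGTG was present for 5 of 8 general proteases, 6 of 14 glycan hydrolases and 2 of 5 membrane proteins, and for 0 of 2 secreted osteoclast enzymes, 0 of 4 myeloid genes and 0 of 5 lipid genes. Of the 16 matched genes that were higher at an unadjusted p under 0.05 it was present for 4, and of the other 24 for 9. A match is a string of letters and not a site shown to be bound.

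The sequences below are shown because they hold matches of genes on both sides of the test threshold, chosen after the values were seen. Each strand is read towards the gene, and CACGTG, TCATGTGA and TCACATGA are in capitals. Ctsa, Ctsd, Gla and Mcoln1 also hold TCACGTGA, whose first T and last A are in lower case. Acp5, Gla, Glb1, Naglu and Ctsa were higher on the adenine diet at an unadjusted p under 0.05, and Lamp1, Mcoln1, Arsa and Ctsd did not reach that threshold. The Acp5 stretch lies at chr9:22130660-22130711 (minus strand), that of Gla at chrX:134601172-134601254 (minus), that of Glb1 at chr9:114401008-114401057 (plus), that of Naglu at chr11:101069999-101070048 (plus) and that of Ctsa at chr2:164833739-164833772 (plus). The Lamp1 stretch lies at chr8:13159078-13159160 (plus), that of Mcoln1 at chr8:3500426-3500501 (plus), that of Arsa at chr15:89477425-89477462 (minus) and that of Ctsd at chr7:142387898-142387947 (minus; the nearer of its 2 matches), all in GRCm38.p6.
Acp5: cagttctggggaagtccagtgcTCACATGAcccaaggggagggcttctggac
Gla: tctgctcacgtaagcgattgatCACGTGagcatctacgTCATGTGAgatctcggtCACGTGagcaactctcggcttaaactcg
Glb1: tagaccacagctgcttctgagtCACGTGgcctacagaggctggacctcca
Naglu: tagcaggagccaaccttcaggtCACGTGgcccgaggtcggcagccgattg
Ctsa: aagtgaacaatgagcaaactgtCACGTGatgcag
Lamp1: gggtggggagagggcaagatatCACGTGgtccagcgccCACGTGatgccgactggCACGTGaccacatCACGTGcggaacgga
Mcoln1: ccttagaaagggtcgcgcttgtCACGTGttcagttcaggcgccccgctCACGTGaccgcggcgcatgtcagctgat
Arsa: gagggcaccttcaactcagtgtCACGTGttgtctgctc
Ctsd: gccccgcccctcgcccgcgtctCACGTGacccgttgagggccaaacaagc
Lamp1, with 4 copies of CACGTG, had a log2 fold change of -0.33, and Mcoln1, with 2 copies, had 0.05. Gla, with 2 copies and a TCATGTGA between them, had 1.08. For Acp5 the match lay 91 bases before the start of 1 of its 3 listed promoters.

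The direct contrast set Ctsk and Acp5 against the 36 general lysosomal genes, which are the proteases, glycan and lipid genes and membrane proteins combined. The median log2 fold change was 1.45 for the secreted pair and 0.26 for the general genes, a difference of 1.19. In each library the mean log2 CPM of the pair exceeded that of the general genes by 4.06, 4.08 and 4.64 in adenine 1 to 3, against 3.23, 3.14 and 3.04 in control 1 to 3. The lowest adenine library was above the highest control library. Of the 36 general genes 11 were higher at an unadjusted p under 0.05, where 4.22% of all genes were. The estimates of the 36 ran up to 1.22 for Arsb. The contrast depended on which enzymes were counted as secreted by osteoclasts: with Ctsb, Ctsd and Ctsl moved to the secreted group, the difference of medians was -0.041. A score over chosen genes was given no p.

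Further lysosomal genes outside the 46 were counted for comparison. Of 25 other enzymes tested, 20 had a positive estimate, and the median log2 fold change was 0.37. At an unadjusted p under 0.05, 4 were higher and 0 lower, where 4.22% and 6.49% of all genes were. Gm2a, the activator protein that presents gangliosides for breakdown, had 28.5, 19.6 and 33.6 FPKM in adenine 1 to 3, against 13.3, 16.8 and 13.6 FPKM in control 1 to 3. The diets did not overlap for Gm2a, and its log2 fold change was 0.84 (SE 0.26). Of 20 further membrane and sorting genes tested, 2 were higher and 0 lower, with a median of 0.08. Gnptab, which makes the mannose-phosphate tag that sends enzymes to lysosomes, had 13.4, 12.1 and 15.4 FPKM in adenine 1 to 3, against 7.15, 7.51 and 8.29 FPKM in control 1 to 3. The diets did not overlap for Gnptab (log2 fold change 0.78, standard error 0.20, edgeR adjusted p = 0.264). Grn, the progranulin precursor, had 0.66, and Tmem106b, a lysosomal membrane protein, had -0.45 (SE 0.23 for each).

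Shared exon sequence can make a few of these counts uncertain, and the sources used here do not give the strand setting of the counting. Overlaps were taken from the GENCODE M21 annotation, which is on GRCm38. The deposited coordinates differ from that build: Glb1 runs from 114230144 to 114303966 in them, but its GRCm38.p6 promoter stretch starts at 114401008. Overlaps in the annotation used for counting were not examined. In GENCODE M21 15 of the 46 genes share exon bases with another gene, 13 of them with a gene on the opposite strand. The largest overlap was that of Ctsd, which shares 34.4% of its exon bases with Gm49369 on the same strand, so strand would not separate them. Ctsl shares 26.8% with Gm47123 on the opposite strand, and neither of these partners was among the genes the authors deposited. Arsb shares 32.3% of its exon bases with the non-coding gene Gm26527 on the opposite strand, which was not among those genes either. Glb1 shares 5.49% with Tmppe on the same strand, which averaged 34.8 counts beside 432 for Glb1. Ctsa shares 10.5% with Pltp, which averaged 497 counts per library beside 2139 for Ctsa. Npc1 shares 4.52% with Rmc1, which averaged 752 counts beside 425 for Npc1. Ctsk and Cd68 share none, and Acp5 shares 6.75% with a transcript that averaged 1.17 counts.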

How the data were processed

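Per the labels' protocols, polyA RNA was taken from pulverised cortical bone, with 3 libraries per diet grouped by their labels. Listed in the submitters' processing notes are edgeR 3.22.5, DESeq2, featureCounts 1.5.0-p3 and HISAT2 2.0.5, with no role or order. The sources used here do not give the genome build or the strand setting. The authors deposited raw counts per gene, FPKM, a normalized signal equal to the counts divided by 1 size factor per library, and their comparison with log2 fold changes and p-values. FPKM are length-scaled and serve for levels.

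Deposited counts of 15609 genes, those that filterByExpr retained at a minimum count of 10, were tested two-sided with the robust quasi-likelihood method of edgeR 4.0.16 in R 4.3.3, with TMM scaling and diet as the only term, and p-values were adjusted by Benjamini-Hochberg over all of them at 0.05. Standard errors were derived from each log2 fold change and its F statistic. Log2 CPM used a prior count of 2. The procedure was tested on simulated counts. Alternatives used DESeq2 1.42.0, limma 3.58.1, other filters, covariates and left-out libraries. With 3 against 3 libraries an exact permutation test cannot go below 0.1. Every one of the 46 genes could be named. Values per library are given for Ctsk, Acp5, genes with an unadjusted p under 0.05 and, by role, the most abundant gene and that with the smallest p. Ctsh, Arsa, Gaa, Ctsd and Npc1 were added to these after their values were seen. Up to 3 genes of each further list were named by smallest p. Some genes that this rule names are not reported here. The genes and lists were chosen with earlier results of these data known. Promoter sequences are RefSeq's.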

Additional observations from a re-analysis of the deposited data

How the results depend on the processing

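The count of genes past an adjusted p of 0.05 was 5 by the DESeq2 Wald test, and 0 to 1 with 1 library left out (the 1 being Cd68, without adenine 2, where 334 of all genes passed). The 17 genes higher at an unadjusted p under 0.05 became 10 with the replicate number as a block and 8 with the muscle level. Of all genes, 2.56% and 2.84% were higher at such a p in these 2 fits, against 4.22% with diet as the only term. The 17 became 6 when control 3 and adenine 1 were both left out, and 7 to 20 with 1 library left out. The shares of all genes higher in the fits that gave 6, 7 and 20 are not given here. These counts therefore do not tell a change among the 46 genes from a shift of all genes. The 0 lower genes became 2 without a filter on low counts and 0 to 3 with 1 library left out; without adenine 2, which gave 3, 14.1% of all genes were lower, and without the filter 5.05% were. The median log2 fold change of the 46 genes was 0.29 to 0.54 with 1 library left out. The difference between secreted and general enzymes was 0.95 to 1.31 with 1 library left out, 1.4003 with the kidney tubule level as a term, and reversed to -0.041 when Ctsb, Ctsd and Ctsl were counted as secreted, since 3 of the 5 genes then came from the general group. Ctse reversed to -0.23 with the muscle level and -0.051 without control 3 (-0.051 to 1.11 with 1 library left out). It reversed to -0.26 when control 3 and adenine 1 were both left out, and Tfeb reversed to 0.15 with the muscle level. Other genes of the 46 changed sign over the alternatives too, among them Gaa (-1.32 to 0.29), Lipa (-0.31 to 0.59) and Npc1 (-0.49 to 0.28). So did Ctsl (-0.32 to 0.17) and Ctsd (-0.29 to 0.09). The cause of these changes was not tested. The deviations of same-numbered libraries had correlations of -0.04, -0.45 and -0.17, and those of differently numbered libraries -0.33 to 0.39. With 3 libraries a diet these values cannot decide whether the numbers pair the libraries. With 3 libraries a diet and a biological coefficient of variation of 0.439, small differences could not be resolved.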

Other observations

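Ctsk and Ctss are neighbours on chromosome 3 in the files' coordinates, Ctsk at 95406567 to 95416673 and Ctss at 95434097 to 95463714. Their libraries were ordered differently: Ctsk was higher in adenine 2 (865 FPKM) than in control 2 (402 FPKM), whereas Ctss was lower in adenine 2 (40.6 FPKM) than in control 2 (59.3 FPKM).

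The 6 genes with an unadjusted p under 0.05 in 18 of 18 alternatives were Ctsk, Acp5, Cd68, Glb1, Arsb and Gla, and Galns had it in 17. Over these alternatives the log2 fold changes ran from 1.02 to 1.46 for Arsb, from 1.03 to 1.35 for Glb1, from 0.78 to 1.43 for Gla and from 1.13 to 1.77 for Cd68. Of the other 10 genes among the 17, Ctsc and Npc2 had such a p in 15 of 18, Gusb and Naglu in 13, Ctsa, Neu1 and Man2b1 in 11, and Ctss, Laptm5 and Ctsz in 8, with log2 fold changes from 0.38 to 1.76 for Ctss and from 0.32 to 1.38 for Laptm5.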
